A study of Mus musculus with 12 samples.

Results

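The interferon gamma inducible GTPases followed here are 9 listed mouse genes of the immunity-related GTPase (IRG) and guanylate-binding protein (GBP) families: Iigp1, Irgm1, Irgm2, Igtp, Tgtp1, Ifi47, Gbp2, Gbp3 and Gbp6. Of these, 8 had a probe set that carries their symbol alone, among 18193 genes so named on the arrays, and all 8 were among the 12797 genes tested. The probe set for Tgtp1 also carries the symbol of its near copy Tgtp2, so it was kept out of the gene tests and is given as a shared probe set. Each gene is shown by the probe set that was brightest on average (mean log2 intensity over the 12 arrays), with any other probe set beside it. Tgtp1, Irgm1, Ifi47, Igtp and Irgm2 lie on chromosome 11, Gbp2 and Gbp3 on chromosome 3, Gbp6 on chromosome 5 and Iigp1 on chromosome 18.

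The arrays come from a mouse model of disease caused by the fusion kinase ZMYM2-FGFR1. T lymphomas were taken after the third serial transplant, in mice whose strain and age the labels do not give. Lymphomas 1, 2 and 3 were unsorted tumours in which most cells were GFP+, Thy1+ and double positive (DP) for CD4 and CD8, and lymphoma 4 was sorted for such cells. The ZNF112 cell line was 1 unsorted array, and the labels give no more than its name. Normal DP thymocytes were sorted Thy1+ CD4+CD8+ cells, each of 3 samples a pool of thymuses from 3 Balb/c mice. Leukaemic stem cells (LSC, 2 samples) were sorted as GFP+, Sca-1+ and c-Kit+ cells without lineage markers, from marrow or spleen of a few leukaemic mice per pool. Haematopoietic stem cells (HSC, 2 samples) had the same surface phenotype without GFP and came from normal Balb/c marrow, with 5 female mice per pool. The labels call the replicates biological.

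IRG and GBP proteins are GTPases that cells make after interferon gamma binds its receptor, which acts through the JAK kinases. They guard cells against microbes that live inside vacuoles. The effector IRG proteins (Iigp1, Tgtp and Ifi47) load onto the membrane of a pathogen vacuole in mouse cells, while the regulatory IRGM proteins (Irgm1, Irgm2 and Igtp) sit on the cell's own membranes and hold the effectors inactive there. GBPs are larger, dynamin-like GTPases that gather on the same vacuoles and on bacteria. In mice, Irgm1 is also known from its role in the quiescence of blood stem cells under interferon.

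Promoter sequence was available for 7 of the 9 members, from RefSeq on the mouse build GRCm38.p6. A search on both strands of the 250 bases before and 50 bases after each start looked for 2 motifs. One was the gamma activated sequence (GAS, TTCNNNGAA), known from promoters that interferon gamma switches on. The other was the interferon stimulated response element (ISRE, written here as GAAA, any 2 bases, GAAA), which IRF factors bind. ISRE letters were present for 6 of the 7 members and GAS letters for 3. Over all 32851 promoters in the table, 3.44% held the ISRE and 8.3% the GAS. Ifi47 had no match to either in this window. The 100 bases before the start are printed for the members with a match, and for Tgtp2, because these are the stretches in which the family shares letters. Capitals mark the matches, on either strand.

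Igtp, chr11:58199456-58199555, plus strand: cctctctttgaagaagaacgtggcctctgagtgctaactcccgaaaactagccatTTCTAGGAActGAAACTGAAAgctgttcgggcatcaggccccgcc
Irgm2, chr11:58214877-58214976, plus strand: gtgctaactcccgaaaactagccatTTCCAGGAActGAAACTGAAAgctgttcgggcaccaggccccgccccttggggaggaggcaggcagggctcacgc
Tgtp1, chr11:48992247-48992346, minus strand: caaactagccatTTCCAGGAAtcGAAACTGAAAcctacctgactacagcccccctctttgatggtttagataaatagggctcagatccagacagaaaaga
Tgtp2, chr11:49064213-49064312, minus strand: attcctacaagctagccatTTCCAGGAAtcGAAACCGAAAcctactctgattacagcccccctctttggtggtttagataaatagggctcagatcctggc
Irgm1, chr11:48871421-48871520, minus strand: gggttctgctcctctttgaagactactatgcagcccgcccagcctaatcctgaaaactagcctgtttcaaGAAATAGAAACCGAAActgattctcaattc
Gbp2, chr3:142620563-142620662, plus strand: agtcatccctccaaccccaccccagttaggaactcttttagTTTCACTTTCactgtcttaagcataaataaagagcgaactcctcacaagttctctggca
Gbp3, chr3:142559944-142560043, plus strand: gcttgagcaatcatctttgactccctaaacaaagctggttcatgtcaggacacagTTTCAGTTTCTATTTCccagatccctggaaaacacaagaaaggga

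In Igtp, Irgm2, Tgtp1 and Tgtp2 the GAS is followed after 2 bases by the ISRE. This spacing was described after the sequences were seen, so it is no test. It occurred in 5 of the 32851 promoters, those 4 and that of Gm12185. A window of 51 bases around it was identical at 49 bases between Igtp and Irgm2 (96.1%) and at 39 bases between Tgtp1 and Tgtp2 (76.5%). In Irgm1 and Gbp3 the 2 ISRE matches overlap, and a second listed start of Gbp3 had no match in its last 100 bases. A match is a description of letters and not a site shown to be bound.

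All values are log2 intensities of single probe sets unless said otherwise, a difference of 1 being a doubling, and levels are not compared between genes. The arrays of the T cell side (lymphoma, cell line and DP thymocytes) had median intensities of 99.5 to 109, and those of the stem cell side (LSC and HSC) 44.3 to 46.1. Levels are therefore compared within a side. The actin 3'/5' ratio, a sign of RNA or cRNA shortening, was 2.44 to 3.69 in lymphomas, 2.60 in the cell line and 2.18 to 2.23 in DP thymocytes. It was 13.6 and 9.82 in LSC, against 5.79 and 3.91 in HSC. T cell markers fitted the labels of the lymphomas and DP thymocytes, with 10 of 10 above the level of the expression filter in each array. The cell line had 9 of 10, with Cd4 at 6.88 and Cd8b1 at 6.19. The levels differed, as the 10 markers summed to 52145 to 74604 in lymphomas, against 117746 to 130544 in DP thymocytes. Cd4 was 9.61 to 11.01 in lymphomas, against 13.02 to 13.30 in DP thymocytes. Ptcra went the other way, at 10.36 to 12.41 in lymphomas, against 9.23 to 9.59. LSC fitted their label less well, and LSC 2 less than LSC 1. Of 6 named stem and progenitor markers, 4 were above that level in LSC 1 and 2 in LSC 2, against 6 in each HSC array, and their summed intensity was 12418 in LSC 1 and 2269 in LSC 2, against 8422 and 12122 in HSC. Kit was 12.31 in LSC 1 and 10.99 in LSC 2, against 11.005 and 11.43 in HSC. Gata2 was 12.39 and 6.94, Cd34 10.63 and 5.10, and Meis1 8.19 and 4.93 in LSC 1 and 2, against 9.80 to 10.12, 10.48 to 11.50 and 10.36 to 10.99 in HSC. Hlf, a defining factor of blood stem cells, was 5.37 and 4.77 in LSC, against 10.66 and 11.10 in HSC, and Mecom was 5.92 and 4.08 in LSC, against 9.80 and 10.38 in HSC. In bulk samples, more cells of a type and more RNA per cell cannot be told apart.

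The first comparison set T lymphoma against the normal thymocytes of like surface phenotype. A gene is called where limma's p, adjusted by Benjamini and Hochberg's method over all genes tested, is under 0.05. Of the 8 members tested, 7 were called higher in T lymphoma and 0 lower, where 3.37% of all genes were called higher and 3.18% lower. Every lymphoma array lay above every DP thymocyte array for all 8, as was so for 15.3% of all genes. The median difference over the members was 2.47, beside -0.02 over all genes tested.

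Among the effectors, Iigp1 was 13.64, 12.87 and 12.80 in unsorted lymphomas and 12.85 in the sorted one, against 6.02, 6.42 and 6.03 in DP thymocytes. Lymphoma 1 was the highest and the other 3 lay close together, all far above the thymocytes, which were around the filter level of 6.33. The difference was 6.88 ± 0.45 (SE; 118-fold; limma adjusted p = 2.9e-05), and its size rests on those low thymocyte values. A second Iigp1 probe set differed by 5.50 in a fit of all probe sets. It was 12.38, 11.54 and 11.45 in unsorted lymphomas and 11.08 in the sorted one, so lymphomas 2 to 4 lay less close together there.

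Ifi47 was 13.93, 13.76 and 13.63 in unsorted lymphomas and 14.24 in the sorted one, against 12.46, 12.61 and 12.50 in DP thymocytes. It was thus bright in the normal cells already, and its difference of 1.37 ± 0.25 (SE; limma adjusted p = 0.0108) was small for the family. Without any 1 of the DP thymocyte arrays this adjusted p was 0.0504 to 0.0609. The probe set shared by Tgtp1 and Tgtp2 was 14.08, 13.71 and 13.90 in unsorted lymphomas and 14.34 in the sorted one, against 9.92, 10.20 and 9.91 in DP thymocytes, a difference of 3.99 ± 0.24 (SE; 15.9-fold) that was called in the fit of all probe sets.

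Of the regulatory IRGM genes, 2 of 3 were called. Irgm1 was 11.72, 11.01 and 11.42 in unsorted lymphomas and 10.86 in the sorted one, against 8.87, 8.85 and 8.53 in DP thymocytes, and Irgm2 was 11.96, 11.63, 11.47 and 11.64 in the same 4 lymphomas, against 9.29, 9.69 and 9.24. The differences were 2.501 ± 0.25 for Irgm1 and 2.27 ± 0.18 for Irgm2 (SE; limma adjusted p = 5.2e-04 and 1.0e-04). Igtp was 13.47, 13.43 and 13.13 in unsorted lymphomas and 13.93 in the sorted one, against 12.25, 12.37 and 11.97 in DP thymocytes. Its groups did not overlap, but the difference of 1.29 ± 0.48 (SE; limma adjusted p = 0.155) did not pass the test, in which its wide spread between the LSC arrays counts too.

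The 3 GBPs were all higher. Gbp3 was 13.13, 13.06 and 12.50 in unsorted lymphomas and 13.72 in the sorted one, against 8.85, 9.01 and 8.91 in DP thymocytes. This made a difference of 4.18 ± 0.31 (SE; 18.1-fold; limma adjusted p = 8.1e-05). Gbp6 was 13.62, 13.01 and 12.69 in unsorted lymphomas and 13.22 in the sorted one, against 9.40, 9.19 and 9.25 in DP thymocytes, a difference of 3.85 ± 0.50 (SE; limma adjusted p = 0.0020); its second probe set differed by 4.43.

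Gbp2 was the least firm of the 3. It was 13.35, 13.11 and 12.06 in unsorted lymphomas and 13.72 in the sorted one, against 10.68, 10.69 and 10.51 in DP thymocytes. The difference was 2.43 ± 0.53 (SE; limma adjusted p = 0.0251). Its second probe set gave the same 2.43 but no call (limma adjusted p = 0.0684). The call was also lost without lymphoma 1 or 2 or any 1 of the DP thymocyte arrays, with limma adjusted p between 0.0649 and 0.110.

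**Figure D1:**
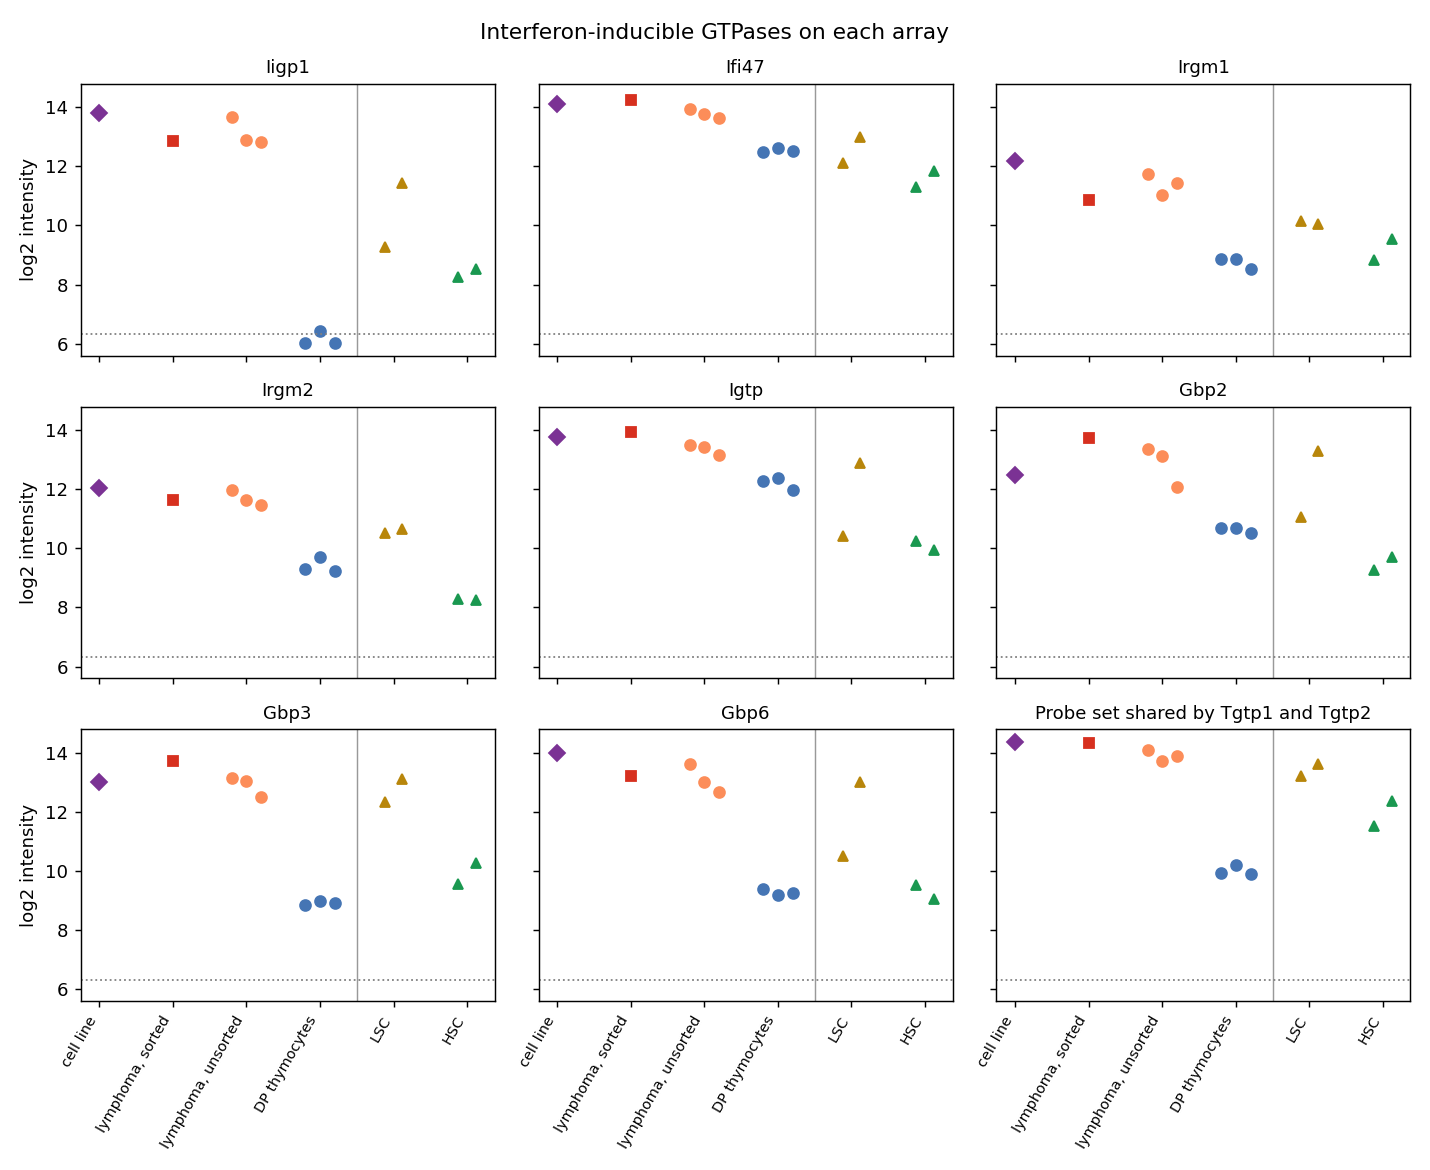
Log2 intensity of each member's shown probe set in each of the 12 arrays, 1 point per array, with groups along the horizontal axis and the stem cell side apart from the T cell side. The 4 lymphomas and the cell line lie above the 3 DP thymocyte arrays for every member, with Iigp1 at 12.80 to 13.64 in lymphomas and at 6.02 to 6.42 in DP thymocytes.

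Within each array, the percentile of a probe set among all probe sets gives a level that does not depend on the scale. Iigp1 stood at percentiles 97.9 to 99.1 in lymphomas, against 38.7 to 46.4 in DP thymocytes. Gbp3 stood at 97.4 to 99.3 in lymphomas, against 72.2 to 73.0 in DP thymocytes. Ifi47 stood at 99.3 to 99.7 in lymphomas, against 97.0 to 97.4 in DP thymocytes, so it was near the top of the array in both. In LSC, Iigp1 stood at 87.4 and 96.9 and Gbp3 at 98.6 and 99.4, against 80.6 to 80.9 for Iigp1 and 90.8 to 92.5 for Gbp3 in HSC.

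**Figure D2:**
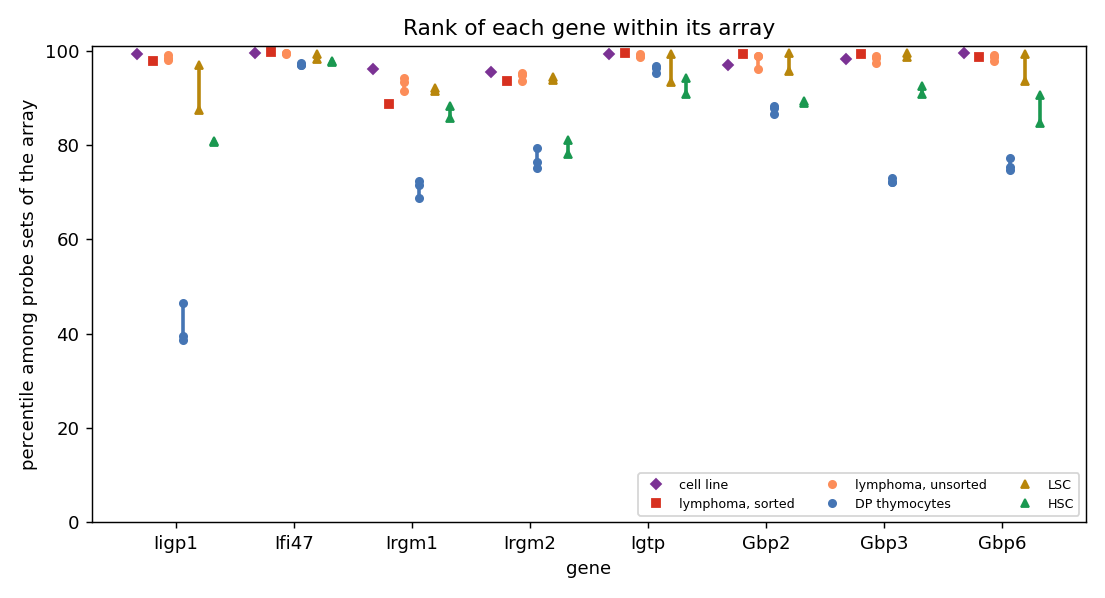
Percentile of each member's shown probe set among all probe sets of its array, from the lowest to the highest array of each group. Iigp1 lies at 97.9 to 99.1 in lymphomas and at 38.7 to 46.4 in DP thymocytes.

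The second comparison set LSC against HSC. Here 4 of the 8 members were called higher in LSC and 0 lower, where 4.05% of all genes were called higher and 6.21% lower. Both LSC arrays lay above both HSC arrays for all 8 members, as for 20.5% of all genes. The median difference was 2.14, beside -0.03 over all genes tested. All 8 had an unadjusted p under 0.05.

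The called members were Irgm2, Gbp3, Gbp2 and Gbp6. Irgm2 was 10.53 and 10.66 in LSC, against 8.28 and 8.24 in HSC, a difference of 2.33 ± 0.23 (SE; limma adjusted p = 5.98e-04). Gbp3 was 12.34 and 13.10 in LSC, against 9.55 and 10.27 in HSC, a difference of 2.81 ± 0.41 (SE; limma adjusted p = 0.0035). For these 2 genes the LSC arrays lay close to each other. Gbp2 was 11.04 and 13.27 in LSC, against 9.28 and 9.70 in HSC, and differed by 2.67 ± 0.69 (SE; limma adjusted p = 0.0399). Its second probe set differed by 2.23 and was not called (limma adjusted p = 0.174). Gbp6 was 10.49 and 13.005 in LSC, against 9.55 and 9.05 in HSC, and differed by 2.45 ± 0.66 (SE; limma adjusted p = 0.0465). Its second probe set differed by 1.89 (limma adjusted p = 0.0388).

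The other members were higher in both LSC arrays without passing the test. Iigp1 was 9.28 and 11.43 in LSC, against 8.27 and 8.54 in HSC (difference 1.95 ± 0.59, SE; limma adjusted p = 0.0669). Its second probe set passed in the fit of all probe sets, with a difference of 2.31 (limma adjusted p = 0.0108). Igtp was 10.42 and 12.87 in LSC, against 10.24 and 9.95 in HSC. Irgm1 was 10.13 and 10.03 in LSC, against 8.84 and 9.53 in HSC. Ifi47 was 12.12 and 12.99 in LSC, against 11.31 and 11.85 in HSC. The shared Tgtp1 and Tgtp2 probe set was 13.19 and 13.61 in LSC, against 11.53 and 12.37 in HSC, and was called (difference 1.45 ± 0.32, SE; limma adjusted p = 0.0252).

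The LSC arrays differed from each other. LSC 2 was above LSC 1 by 2.51 for Gbp6, 2.45 for Igtp, 2.23 for Gbp2 and 2.15 for Iigp1, but by 0.13 for Irgm2 and -0.10 for Irgm1. The summed intensity of the 10 T cell markers was 5079 in LSC 1 and 22366 in LSC 2, against 916 and 557 in HSC, so these markers were higher in LSC along with the members. LSC 2, the array with higher values for 7 of the 8 members, was also the one with fewer stem cell markers above the filter level. The 12 macrophage markers summed to 28862 in LSC 1 and 4297 in LSC 2, against 35032 and 6212 in HSC. The part of these cells in the members' values was not tested. The number of members called changed with the LSC array left out. Such fits keep 1 LSC array, so their counts are not given. With array weights, or with the LSC and HSC arrays fitted alone, 0 of the 8 were called. The share of all genes called in those fits is not given, so this 0 is not a result about the members in particular.

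The difference of the contrasts was tested directly. Iigp1 differed by 4.93 ± 0.74 more in T lymphoma over DP thymocytes than in LSC over HSC (SE; limma adjusted p = 0.0052), its second probe set by 3.18 (limma adjusted p = 0.0089), and Irgm1 by 1.61 ± 0.42 (SE; limma adjusted p = 0.0448). These 2 of 8 were called higher and 0 lower, where 5.28% of all genes were called higher and 3.59% lower. The size for Iigp1 rests on its low values in DP thymocytes, around the filter level. The other 6 differences ran between -0.25 for Igtp and 1.40 for Gbp6 and did not pass, although the second Gbp6 probe set did, with 2.54 (limma adjusted p = 0.0335). The shared Tgtp1 and Tgtp2 probe set also passed, with 2.54 (limma adjusted p = 0.0073). The call for Irgm1 was lost without lymphoma 1, 2 or 3, any 1 of the DP thymocyte arrays, HSC 2 or LSC 2, with limma adjusted p between 0.0563 and 0.127.

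**Figure D3:**
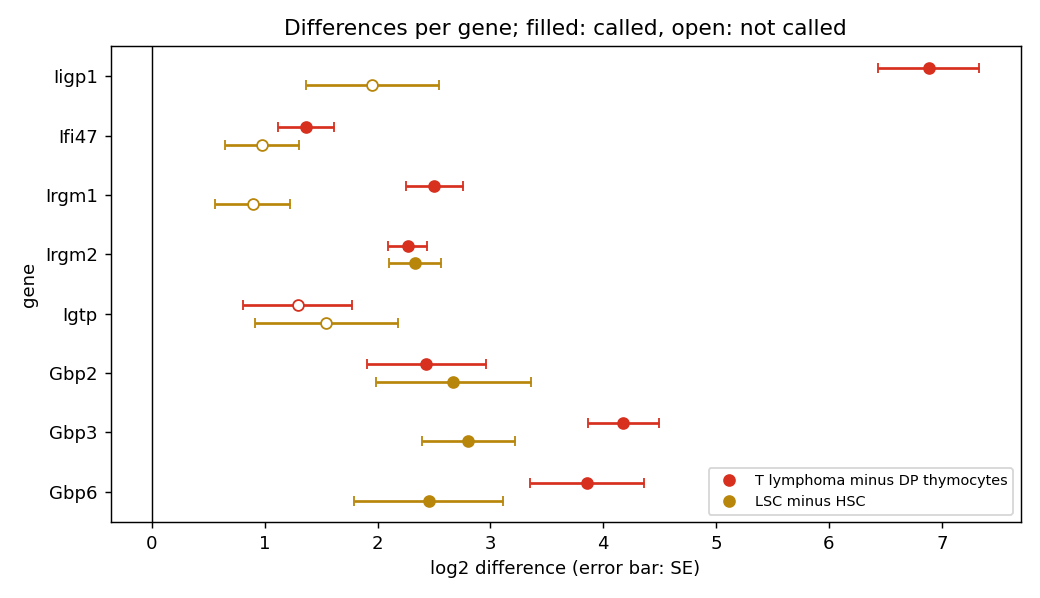
Log2 difference of each member for T lymphoma minus DP thymocytes and for LSC minus HSC, with the standard error of the fit as bars. Filled points passed the test and open points did not. Iigp1 is at 6.88 on the lymphoma side and 1.95 on the stem cell side, and Irgm2 is at 2.27 and 2.33.

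One lymphoma had been sorted to see what sorting does. It is labelled as a separate biological replicate from the unsorted ones, so sorting and tumour cannot be told apart. The part of other cells in the members' values was not tested. The 12 macrophage markers summed to an intensity of 3695 in the sorted lymphoma, against 26461 to 55051 in the unsorted ones, with 1399 to 1514 in DP thymocytes. Stroma and endothelium markers summed to 773 in the sorted lymphoma, against 17289 to 34789 in the unsorted ones. The macrophage receptor gene Csf1r was 6.54 in the sorted lymphoma, against 12.95, 11.55 and 11.47 in the unsorted ones. Over the members, sorted minus unsorted lymphoma ran between -0.52 for Irgm1 and 0.88 for Gbp2, with 0 of 8 called by limma and 0 at an unadjusted p under 0.05. Of all genes, 0.0625% were called higher and 0.594% lower. The mean of the 8 members was 13.02 in the sorted lymphoma, against 13.10, 12.73 and 12.46 in the unsorted ones. With the sorted array as the only lymphoma, the difference from DP thymocytes was 6.69 for Iigp1 and 4.79 for Gbp3. Both comparisons have 1 sorted array, whose spread was taken from the other groups.

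The ZNF112 cell line had the members at similar levels. Iigp1 was 13.79, Irgm1 12.18, Irgm2 12.03, Igtp 13.76 and Ifi47 14.09 in the line, with Gbp2 at 12.46, Gbp3 at 13.01 and Gbp6 at 14.00. Cell line minus T lymphoma ran between -0.60 for Gbp2 and 0.92 for Irgm1. By limma 0 of 8 were called, where 0.539% of all genes were called higher and 0.617% lower, and 1 had an unadjusted p under 0.05. With array weights 1 of the 8 was called, and the share of all genes called in that fit is not given. In a comparison added after the data were seen, 6 of 8 were called higher in the cell line over DP thymocytes, all but Igtp and Gbp2, where 2.78% of all genes were called higher and 2.52% lower. With a single array, its spread was taken from the rest of the fit. The macrophage markers summed to 2216 in the line.

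The ligand itself was spread widely. Ifng, the gene of interferon gamma, was 13.37, 9.34 and 8.30 in unsorted lymphomas, 6.55 in the sorted lymphoma and 5.74 in the cell line, against 5.19 to 5.28 in DP thymocytes. It was highest in lymphoma 1, and near the thymocytes in the cell line. The mean of the 8 members was 13.16 in the line, against 12.46 to 13.10 in lymphomas. Gbp2 in the line, at 12.46, lay within the lymphomas' 12.06 to 13.72. The part of Ifng in the members' values was not tested. Ifng differed by 4.15 ± 1.27 between T lymphoma and DP thymocytes and did not pass (SE; limma adjusted p = 0.0919). In LSC it was 12.80 and 12.46, against 3.76 and 3.79 in HSC, a difference of 8.85 ± 1.66 (SE; limma adjusted p = 0.0113), with the HSC values below the filter level. The 8 named NK and cytotoxic markers summed to 22182 and 29834 in LSC, against 928 and 2525 in HSC, with 3 of 8 above the filter level in every one of these arrays. Most of the LSC sum was the granzyme gene Gzma, at 14.24 and 14.59 in LSC, against 6.48 and 6.59 in HSC. On the T cell side Gzma was 15.18, 14.18 and 14.70 in unsorted lymphomas and 14.47 in the sorted one. It was 15.03 in the cell line, against 10.46 to 10.75 in DP thymocytes. Gzmb was less even, at 14.38 in lymphoma 1, against 8.10, 7.93 and 6.72 in lymphomas 2 to 4. In the cell line, where Ifng was low, Gzmb was 13.28, against 5.95 to 6.41 in DP thymocytes. Nkg7 was 13.10 in lymphoma 1, against 9.81, 9.39 and 8.54 in lymphomas 2 to 4 and 7.61 in the cell line. Among the lymphomas Prf1 was highest in lymphoma 1, at 10.48, while Klrd1, Eomes and Ncr1 were highest in lymphoma 3. The 8 markers summed to 68876.5 in lymphoma 1, 19973 and 27955 in lymphomas 2 and 3, 23472 in the sorted one and 43742 in the cell line. Gzmb was 10.69 and 10.65 in LSC, against 5.44 and 6.40 in HSC, and Nkg7 overlapped between the groups. The other 5, Prf1, Klrk1, Klrd1, Eomes and the receptor gene Ncr1, lay at 5.72 or below in both LSC arrays. The part of such cells in the Ifng values was not tested.

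Of 17 genes listed for the interferon gamma pathway, 16 had a named probe set and 15 were tested. In T lymphoma over DP thymocytes 3 were called higher and 0 lower, with a list median of 0.77. These were Nlrc5 (4.44), the activator of MHC class I genes, Irf1 (2.07), an interferon-induced transcription factor that binds the ISRE, and Ptpn2 (0.74), a phosphatase that restrains JAK signalling. Irf1 was 13.31, 13.24 and 12.78 in unsorted lymphomas and 13.39 in the sorted one, against 11.04, 11.12 and 11.16 in DP thymocytes. In LSC over HSC 4 were called higher and 0 lower: Ifng, its receptor chain Ifngr1 (1.76), Nlrc5 (2.32) and Ptpn2 (1.12). The other chain, Ifngr2, differed by -0.58 in T lymphoma over DP thymocytes and by -0.29 in LSC over HSC, with no call. The difference of the contrasts was called for Nlrc5 (2.12) and for the kinase gene Jak2 (-1.51). In the cell line over DP thymocytes Nlrc5 (4.17), Irf1 (2.45) and Ptpn2 (1.09) were called higher and 0 of the list lower.

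Relatives in the same families were mostly not named by a probe set of their own: 5 of 16 listed were. Gm4951 was 5.57 to 5.87 in DP thymocytes, below the filter level, so the sizes of its differences from them rest on low values. In T lymphoma over DP thymocytes Gm4951 (5.58), Gbp2b (3.92) and Gbp7 (1.48) were called higher and Irgq (-1.13) lower, while Gbp8 was not called. In LSC over HSC Gbp2b (3.82), Gm4951 (3.34), Gbp8 (3.21) and Gbp7 (2.18) were called higher. Gbp8 was 12.90, 13.26, 12.08 and 13.48 in lymphomas 1 to 4, against 13.08, 12.88 and 12.95 in DP thymocytes. It was thus the named GBP that was as bright in normal thymocytes as in the tumours, and its difference of the contrasts was -3.25 (limma adjusted p = 0.0116). For Gm4951, an IRG relative, the difference of the contrasts was 2.25 (limma adjusted p = 0.0025). In the cell line over DP thymocytes Gm4951 (6.55) and Gbp7 (1.71) were called higher.

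Genes of the ATG8 conjugation machinery, which in mouse cells helps to place IRG and GBP proteins on vacuoles, had 11 of 11 tested. By limma 0 were called in T lymphoma over DP thymocytes (median -0.04) and 0 in LSC over HSC (median 0.28). Gabarapl1 was 6.41 in the sorted lymphoma, against 10.74, 9.04 and 9.55 in the unsorted ones (difference -3.37; limma adjusted p = 0.0425). This sets 1 array against 3, with its spread taken from the other groups, and does not tell sorting from the tumour sorted. Of 10 tested genes that type I interferon induces, 2 were called higher in T lymphoma over DP thymocytes, Usp18 (4.49), a protease that trims ISG15 from proteins, and Bst2 (2.34), a membrane protein that tethers viruses. The list median was 1.77 in T lymphoma over DP thymocytes, 2.11 in the cell line over DP thymocytes and 0.58 in LSC over HSC. Only Usp18 (1.77) was called in LSC over HSC. The difference of the contrasts was called for Usp18 (2.72). It was also called for Oasl2, but that probe set averaged 4.09 in LSC, 5.85 in HSC and 5.00 in DP thymocytes, all below the filter level, so no size is given. In the cell line over DP thymocytes Usp18 (4.78) and Bst2 (3.504) were called higher. In the sorted lymphoma this list had a median of -1.50 relative to the unsorted ones and 0 calls, beside 0.29 for the 8 members.

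**Figure D4:**
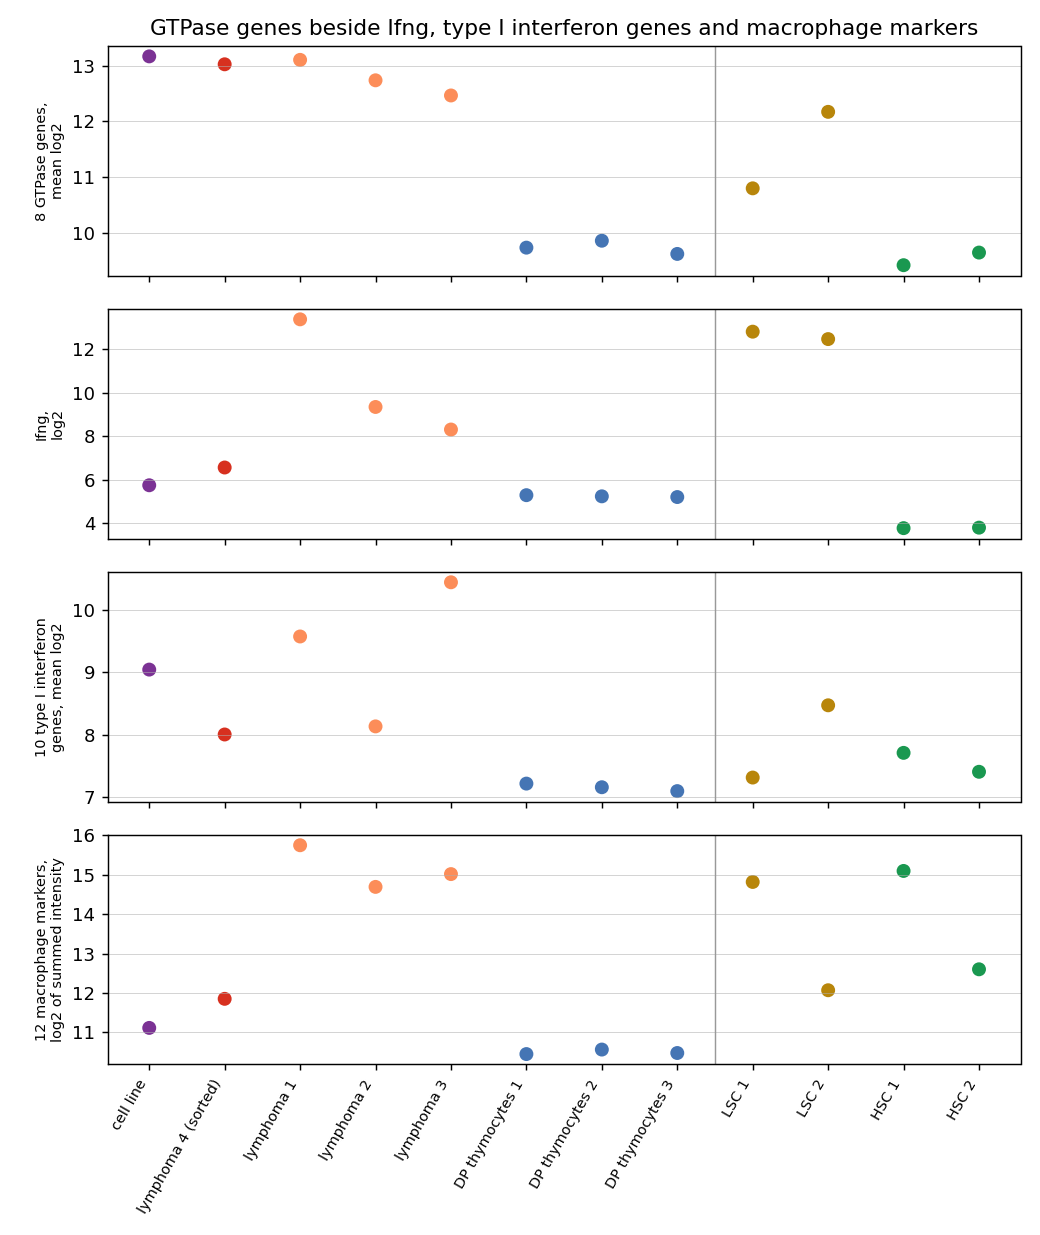
Mean log2 intensity of the 8 members in each array beside that of the type I interferon list and the log2 intensity of Ifng, with groups along the horizontal axis. The lowest panel gives the log2 summed intensity of the 12 macrophage markers. The members stand at 13.02 in the sorted lymphoma and 13.16 in the cell line, where Ifng is at 6.55 and 5.74.

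The members moved together over the 12 arrays after each gene's mean within its side was taken off. Over 28 pairs Pearson's r ran between 0.66 for Irgm1 with Igtp and 0.97 for Gbp3 with Ifi47, with a median of 0.91. These values describe arrays that share the group differences above. The 5 other genes closest to the members' mean were Ifi35 (r = 0.990), Nlrc5 (0.983), Pde8a (0.981), Trgv1 (0.979) and Ptpn13 (0.976). Among the lymphomas, lymphoma 3 had the lowest value for 7 of the 8 members, and the sorted lymphoma had the lowest for Irgm1. The highest value was in lymphoma 1 for 4 members and in the sorted lymphoma for the other 4.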

How the data were processed

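The deposited table holds linear probe set intensities made by the authors; the submitters' processing notes name RMA, with no version. Per the labels' protocols, Trizol RNA was amplified and hybridised to Affymetrix arrays, 1 per sample. Of 45101 probe sets, 64 controls were left out, 34945 had 1 gene symbol and 932 several, from the platform annotation. Log2 was taken of the deposited intensity. A gene was tested if its probe set exceeded log2 6.33, the median of all values, in at least 2 arrays. One limma fit (3.58.1, R 4.3.3; lmFit, eBayes, two-sided) held all 12 arrays with a mean per group, so groups share 1 spread, and p-values were adjusted over 12797 genes. The fit was tested on simulated data. Members and lists were chosen with earlier results of these data known. Named genes are the members, called genes of the lists (at most 8 per list, with Ifng, its receptors and Irf1 always) and the 5 genes most like the members. Same-numbered arrays were checked and not paired (r of deviations -0.07 to 0.10). Alternatives covered filter, probe set choice, scaling, weights and left-out arrays. Protein sequences were not used here. The number of arrays limits the precision.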

Additional observations from a re-analysis of the deposited data

Results flagged for a closer look

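Among the 4 lymphomas, lymphoma 1 stood apart for Iigp1, at 13.64 against 12.80 to 12.87 in the others, and the gap took 0.924 of the whole range. This holds for the shown probe set. The second Iigp1 probe set was 12.38, 11.54, 11.45 and 11.08 in lymphomas 1 to 4, with the others more spread. For Ifngr1, lymphoma 2 stood apart at 13.26, with the others at 13.77 to 13.86, and the gap took 0.840 of the range. Both shares exceed Dixon's critical value for 4 arrays. Over the 8 members and 4 other genes examined, chance alone gives 0.6 such gaps on average.

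The effect in T lymphoma over DP thymocytes differed from that in LSC over HSC by 4.93 for Iigp1 and by 1.61 for Irgm1, both by limma's test of the difference. The size for Iigp1 rests on its low values in DP thymocytes, around the filter level. The call for Irgm1 was lost when any of several single arrays was left out, as given above. The arrays of the T cell side and of the stem cell side share no samples.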

How the results depend on the processing

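The number of members called in T lymphoma over DP thymocytes was 7, and 5 to 7 when 1 array was left out. In LSC over HSC 4 were called, 2 with no filter, 0 with array weights and 0 with only the arrays compared. The number also changed when 1 array was left out, which keeps 1 array in a group. For the difference of the contrasts 2 were called, 1 with a trended robust prior, 1 with array weights, 3 with quantile normalization, and 1 to 3 when 1 array was left out. In the cell line over T lymphoma 0 were called, and 1 with array weights. The share of all genes called in each alternative fit is not given, so a changed count is not a result about the members in particular. The causes were not tested. Of single values, 0 of 168 reversed in T lymphoma over DP thymocytes and 0 of 128 in LSC over HSC; 10 of 176 reversed for the difference of the contrasts. With quantile normalization that difference was 0.34 for Irgm2, 0.21 for Igtp and 0.33 for Gbp2, and without _x_at and _s_at probe sets it was 0.21 for Gbp2. With 1 array left out it ran from -0.16 to 0.074 for Irgm2, -1.48 to 0.97 for Igtp, -1.35 to 0.87 for Gbp2 and -0.043 to 0.82 for Ifi47. With the replicate block, 7 members were called in T lymphoma over DP thymocytes and 3 in LSC over HSC, where Gbp6 lost its call (limma adjusted p = 0.107); the shared numbers do not show a pairing.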

Other observations

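The 51 tested genes nearest to the members on their chromosomes were chosen after the data were seen. They were up to 5 on either side of each cluster and Gm12185 within 1, with listed IRG and GBP genes left out. Gm12185 was not on those lists, although its promoter held the GAS and ISRE at the spacing described above, so it may not be a gene outside the families. It was not called, at 0.23 in T lymphoma over DP thymocytes and 0.28 in LSC over HSC. Of the 51, 1 was called higher (Tspan5, 1.86, near Gbp2 and Gbp3) and 1 lower (Lmo4, -2.07) in T lymphoma over DP thymocytes. Their median was -0.09, where 3.37% of all genes were called higher and 3.18% lower. In LSC over HSC 4 were called higher (Havcr2 at 2.20, Pdlim5 at 2.10, Gtf2b at 1.37 and Dctn4 at 1.29) and 1 lower (Mgat1 at -2.29), with a median of 0.11, where 4.05% of all genes were called higher and 6.21% lower. Whether the neighbours differ from other genes was not tested.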
